A study of Mus musculus with 8 samples.

Results

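Formative and primed pluripotency genes are described here in RNA sequencing (RNA-seq) of mouse embryonic stem cells (ESCs) that expressed BAZ2A with or without its RNA-binding TAM domain. The genes are *Otx2*, *Pou3f1*, *Zic2*, *Zic5*, *Sall2*, *Foxd3*, *Lef1*, *Nes* and *Fgf5*, which are 9 of the 50902 genes kept from the deposited table. They were chosen by symbol, with 1 entry for each on the main chromosomes. BAZ2A is a chromatin factor known for its part in heterochromatin of differentiated cells. In ESCs, the study reports it on large active chromatin domains. The comparison asks which transcripts differ when BAZ2A lacks the domain. E14 ESCs were grown in N2B27 medium with LIF and 2i, a pair of inhibitors of MEK and GSK3β that holds ESCs in the naive ground state. Each line carried a Flag and HA tagged *Baz2a* transgene, inserted with the PiggyBac transposase and resistant to the siRNA. ESC + F/H-BAZ2Ar WT carried wild-type BAZ2A and ESC + F/H-BAZ2Ar ΔTAM carried BAZ2A without the TAM domain, here called WT and ΔTAM. The cells of both lines were transfected with siRNA against *Baz2a* and collected 3 days later, and no library without transgene or without siRNA was used here. There were 4 libraries per line, and the labels do not say whether the replicates came from separate cultures, so p-values measure only the spread between these libraries. Since the lines were derived from single cells, a difference between them and an effect of the TAM domain cannot be told apart.

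The blastocyst's naive epiblast passes after implantation through a formative state, in which cells become competent for germ-layer induction, to a primed state. In culture, naive ESCs follow the same path when LIF and 2i are withdrawn, and the transition brings up factors such as OTX2 and OCT6 (the product of *Pou3f1*) with the growth factor FGF5, while naive factors decline. The genes described here belong to this program, to early neural fate, or to both, and most are known to be low in ESCs kept in 2i.

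The libraries held 7281271 to 7714168 reads on genes in WT and 6585593 to 8696304 in ΔTAM. Expression was deposited as RPKM, the reads of a gene scaled by its length in kilobases and by the library total, in which the length is the whole genomic span of a gene with its introns. Reads per gene were recovered from these values, of which 99.5% to 99.6% in each library were whole reads within 0.02 of a read. *Baz2a*, the gene targeted by the siRNA, ranged from 9.95 to 11.2 RPKM in WT and from 17.0 to 18.9 RPKM in ΔTAM. Its log2 fold change was 0.80 (limma, Benjamini-Hochberg adjusted p = 6.32e-05). In both lines the reads of *Baz2a* can come from the gene or from the transgene, which were not separated. An effect of this difference in level and an effect of the TAM domain cannot be told apart. All 13 naive pluripotency genes looked up were above 0, with *Nanog* at 19.5 ± 0.106 RPKM in WT and 19.9 ± 0.944 RPKM in ΔTAM (SD, n = 4).

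Of the formative and primed genes, 8 were above 0 and *Fgf5* had no read in any library. *Nes* and *Sall2* were lower in ΔTAM, no member was higher, and 5 of the 7 members tested did not pass (limma on log2(RPKM + 0.01), Benjamini-Hochberg adjusted p under 0.05 over 16149 genes). Of all genes tested, 13.2% were higher and 11.9% lower by this rule, 25.1% in all. At an unadjusted p under 0.05, 1 member was higher and 3 were lower, against 19.0% and 17.9% of all genes tested, 36.9% in all. A model of the recovered reads (limma voom, for genes that averaged 10 reads or more) called 1 of 6 members higher (*Lef1*) and 3 lower (*Nes*, *Sall2* and *Foxd3*), against 21.8% of 12660 genes in each direction, 43.7% in all. *Otx2* lay under the minimum of the main test and is described with the tests that could include it. The median log2 fold change of the 7 members was -0.14, and that of all genes tested was 0.0040. On the log2(RPKM + 0.01) scale, *Nes* was the only member past the study's thresholds of an absolute log2 fold change of 0.58 with an unadjusted p under 0.05, which 4.4% of all genes tested passed as higher and 4.02% as lower, 8.42% in all. With voom, *Nes*, *Sall2* (-0.63) and *Lef1* (0.59) were past them, against 5.18% of all genes as higher and 6.63% as lower, 11.8% in all. The values of the 4 libraries of the lines did not overlap for 3 of the 7 members tested (*Nes*, *Sall2* and *Lef1*), and the same held for 29.6% of all genes tested. They did not overlap for *Otx2* either, which was not among the genes tested.

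**Figure D1:**
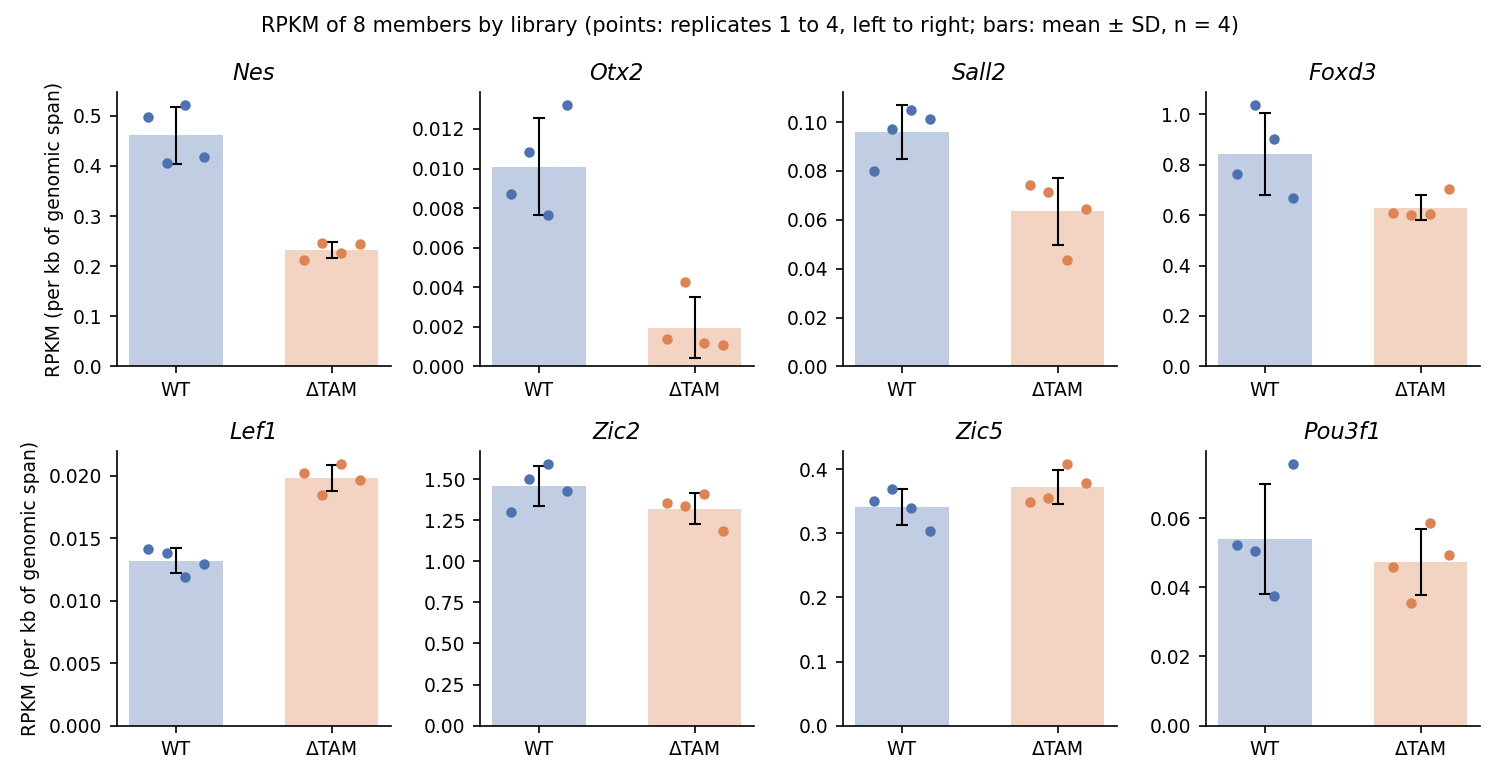
RPKM per kilobase of genomic span of the 8 members above 0 in the WT and ΔTAM lines, each panel with its own axis from 0. Points are libraries, replicates 1 to 4 from left to right, and bars with whiskers are the mean ± SD (n = 4); the points of the lines do not overlap for Nes, Otx2, Sall2 and Lef1.

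The promoters of *Nes* and *Otx2* are shown, as these members had the lowest ΔTAM level relative to WT. The stretches are from RefSeq on GRCm38.p6, from 5′ to 3′ along the gene and ending next to a start site, with every CG pair in capitals. That of *Nes* is chr3:87970843-87971077 on the plus strand. That of *Otx2* is chr14:48667645-48667894 on the minus strand, before the most upstream *Otx2* start that RefSeq lists in the window table, and the gene as counted here reaches further upstream.
Nes: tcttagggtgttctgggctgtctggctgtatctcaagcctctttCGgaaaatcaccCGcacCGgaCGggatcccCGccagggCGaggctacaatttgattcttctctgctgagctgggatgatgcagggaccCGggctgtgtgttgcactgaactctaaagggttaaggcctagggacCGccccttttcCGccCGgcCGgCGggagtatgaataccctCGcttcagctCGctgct
Otx2: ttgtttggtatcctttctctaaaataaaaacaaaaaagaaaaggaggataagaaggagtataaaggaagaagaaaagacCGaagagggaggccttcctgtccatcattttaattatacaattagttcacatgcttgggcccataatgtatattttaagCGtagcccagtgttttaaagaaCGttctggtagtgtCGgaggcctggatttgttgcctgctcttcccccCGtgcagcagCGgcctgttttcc
The *Nes* stretch of 235 bases held 14 CG pairs, its full window of 250 bases 15, and the *Otx2* stretch of 250 bases 6. Over 32851 RefSeq windows of 250 bases before a start, the median was 6 and the 75th percentile 16. The windows of 7 members, 14 in all, were also searched on both strands for letters that factors of this program are known to bind. CTTTGAT (TCF/LEF) and ATGCAAAT (the POU octamer) were in none of them, TAATCC (OTX) was in 1 and ACAAAG (SOX) in 2. These letters were found in 3.21%, 1.60%, 6.25% and 16.5% of all windows, and the TCF/LEF and SOX letters share CTTTG on opposite strands.

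*Otx2* encodes a homeodomain factor that directs the exit from the naive state and later the forming of the forebrain. It lies on chromosome 14 of mm10 (48657677 to 48673819, minus strand). The 4 WT libraries held 7, 9, 6 and 11 *Otx2* reads (0.00872, 0.0108, 0.00763 and 0.0132 RPKM), and the ΔTAM libraries held 1, 3, 1 and 1 (0.00137, 0.00424, 0.00116 and 0.00107 RPKM). Every WT library was above every ΔTAM library, at counts where a single read shifts the level by a large share. The mean fell from 0.0101 ± 0.00246 to 0.00196 ± 0.00153 RPKM (SD, n = 4), to 19.4% of WT. From the summed reads, 33 in WT and 6 in ΔTAM, the ΔTAM level per library read was 18.3% of WT, with an exact 95% interval of 6.26% to 44.2% that covers counting error only. The two-sided exact permutation test over the libraries gave p = 0.0286, the smallest that 4 against 4 allows. Without a minimum level, limma gave a log2 fold change of -0.75 on the log2(RPKM + 0.01) scale (standard error 0.12, adjusted p = 0.0076). Of the 25439 genes in that fit, 7.65% were higher and 6.85% lower, 14.5% in all. With voom on genes that averaged 3 reads or more, a minimum chosen after seeing the data so that *Otx2* was included, the estimate for *Otx2* was -2.23 (SE 0.51, adjusted p = 0.00123). *Otx2* passed this minimum only through WT, where it was the higher, so that its call there is a description and no independent support. That fit called 1 of 8 members higher and 4 lower, against 19.1% and 18.8% of 15106 genes, 38.0% in all. The antisense gene *Otx2os1*, which overlaps *Otx2*, had no read in any library.

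*Pou3f1* encodes the POU factor OCT6, which acts with OTX2 in the formative state and later in glia. It lies on chromosome 4 (124656807 to 124660655, plus strand). It was counted with 10, 10, 7 and 15 reads in WT and 8, 6, 12 and 11 in ΔTAM (0.0523, 0.0505, 0.0373 and 0.0755 against 0.0460, 0.0356, 0.0585 and 0.0492 RPKM). The lines overlapped, and the lowest library of all was ΔTAM replicate 2. The log2 fold change was -0.14 with a 95% interval of -0.60 to 0.32 (limma, adjusted p = 0.653), and a change within these bounds was not detectable at this depth. Without WT replicate 4, the highest library, the estimate turned to 0.011.

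*Zic2* and *Zic5* are a pair of zinc finger genes that lie head to head on chromosome 14, with 9757 bp between them, and both are known for roles in the neural plate. *Zic2* (122475435 to 122479852, plus strand) also binds enhancers in pluripotent cells. Its levels were 1.30, 1.50, 1.59 and 1.43 RPKM in WT and 1.35, 1.33, 1.41 and 1.18 RPKM in ΔTAM, from 258 to 342 reads. The ranges overlapped, and the log2 fold change was -0.14 (95% interval -0.31 to 0.035, limma adjusted p = 0.225). *Zic5* (122456795 to 122465677, minus strand) had 0.351, 0.369, 0.340 and 0.303 RPKM in WT and 0.349, 0.355, 0.408 and 0.378 RPKM in ΔTAM, from 138 to 195 reads. These ranges overlapped too, with a log2 fold change of 0.12 (95% interval -0.046 to 0.29, limma adjusted p = 0.265). Neither gene of the pair passed the test, and the intervals leave out a halving or a doubling of either. The direction of each estimate was the same with any library left out, -0.19 to -0.088 for *Zic2* and 0.071 to 0.16 for *Zic5*.

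*Sall2*, a zinc finger gene of the spalt family, lies on chromosome 14 (52311172 to 52328762, minus strand). Its levels were 0.0800, 0.0971, 0.105 and 0.101 RPKM in WT (70, 88, 90 and 92 reads) and 0.0742, 0.0714, 0.0437 and 0.0646 RPKM in ΔTAM (59, 55, 41 and 66 reads). All ΔTAM libraries were below all WT libraries, with ΔTAM replicate 1 close to WT replicate 1. The mean was 0.0959 ± 0.0111 RPKM in WT and 0.0635 ± 0.0138 RPKM in ΔTAM (SD, n = 4), a log2 fold change of -0.54 (standard error 0.16, 95% interval -0.91 to -0.18, limma adjusted p = 0.0406). With voom it was -0.63 (adjusted p = 0.00243). The call in the main test was near its threshold. It was lost without a filter (limma adjusted p = 0.0695) and with the replicate number as a block (0.113). With 1 library left out in turn, the adjusted p from limma was 0.0389 to 0.0976, and above 0.05 without WT replicate 2, 3 or 4 (0.0894, 0.0976 and 0.0913) and without ΔTAM replicate 2 or 4 (0.0542 and 0.0803).

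*Foxd3* encodes a forkhead factor needed in the epiblast and later in the neural crest, and lies on chromosome 4 (99656299 to 99658622, plus strand). It was measured at 0.762, 1.04, 0.901 and 0.667 RPKM in WT (88, 124, 102 and 80 reads) and at 0.609, 0.599, 0.606 and 0.704 RPKM in ΔTAM (64, 61, 75 and 95 reads). WT replicate 4 lay below ΔTAM replicate 4, and all other WT libraries lay above all ΔTAM libraries. The log2 fold change was -0.40 (standard error 0.13, 95% interval -0.71 to -0.084, limma adjusted p = 0.0684). *Foxd3* was called lower with voom (-0.39, adjusted p = 0.0238) and, in the main test, without WT replicate 4 (-0.50, limma adjusted p = 0.0235). The exact permutation test gave p = 0.0571.

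*Lef1* encodes a factor of the TCF/LEF family, which binds β-catenin and activates genes of the Wnt pathway. GSK3β, which the 2i medium inhibits, is the kinase that marks β-catenin for degradation. *Lef1* lies on chromosome 3 (131110471 to 131224356, plus strand), and its exons are 7.72% of its span, so that its RPKM are low for its reads. The WT libraries had 80, 81, 66 and 76 *Lef1* reads and the ΔTAM libraries 104, 92, 127 and 130. On the RPKM scale these are 0.0141, 0.0138, 0.0119 and 0.0129 in WT and 0.0202, 0.0184, 0.0209 and 0.0197 in ΔTAM. All ΔTAM libraries were above all WT libraries, and the mean in ΔTAM was 150% of WT (0.0198 ± 0.00105 against 0.0132 ± 0.001001 RPKM, SD, n = 4). In the main test, whose pseudocount of 0.01 RPKM is close to these levels, the log2 fold change was 0.36 (standard error 0.12, 95% interval 0.083 to 0.64, limma adjusted p = 0.0642). Voom, which uses reads and no length, gave 0.59 (SE 0.11, 95% interval 0.36 to 0.81, adjusted p = 1.48e-04). The antisense gene *Gm43352*, which overlaps the 5′ end of *Lef1*, had at most 1 read in a library.

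*Nes* encodes nestin, an intermediate filament protein of neural progenitors that is also used as a marker of neuroectoderm, and was the member with the largest change among those tested. It lies on chromosome 3 (87971078 to 87980451, plus strand). The levels of *Nes* were 0.498, 0.406, 0.521 and 0.418 RPKM in WT (232, 196, 238 and 202 reads) and 0.212, 0.246, 0.226 and 0.244 RPKM in ΔTAM (90, 101, 113 and 133 reads). The lowest WT library was far above the highest ΔTAM library. The mean was 0.461 ± 0.0574 RPKM in WT and 0.232 ± 0.0160 RPKM in ΔTAM (SD, n = 4), which is 50.4% of WT, and the log2 fold change was -0.95 (standard error 0.093, 95% interval -1.17 to -0.74, limma adjusted p = 4.63e-04). With voom it was -0.97 (standard error 0.10, adjusted p = 1.2e-07). Leaving out any library kept it between -1.01 and -0.89, with an adjusted p of 0.00116 to 0.00252 from limma. In bulk RNA, fewer cells with a transcript and less of it per cell cannot be told apart.

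Markers of neuroectoderm other than *Nes* were looked up beside it. Of 8 genes, 6 were above 0, *Hes5* and *Fabp7* had no read, and 2 were above the minimum of the main test. *Sox1*, an early neural transcription factor, ranged from 0.0791 to 0.100 RPKM in WT and from 0.0412 to 0.0535 RPKM in ΔTAM (19 to 25 and 9 to 15 reads). The lines did not overlap, with a log2 fold change of -0.86 (limma, adjusted p = 9.55e-04). *Tubb3*, a tubulin gene of neurons, did not pass (0.26, limma adjusted p = 0.126). With voom, 2 of 3 genes tested were lower, *Sox1* and *Ncam1* (-1.13, adjusted p = 5.17e-05), a cell adhesion gene named here after its values were seen. Voom called 21.8% of all its genes lower, and the main test 11.9%. The summed RPKM of the 8 genes ranged from 0.233 to 0.320 in WT and from 0.248 to 0.300 in ΔTAM. Most of this sum was *Tubb3* (0.148 to 0.201 RPKM in WT and 0.201 to 0.242 in ΔTAM), so that it does not show the levels of *Sox1* or *Ncam1*. The part of such cells in the level of *Nes* was not tested.

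*Fgf5*, which encodes the growth factor used as a marker of the formative and primed epiblast, was the member without reads. It lies on chromosome 5 (98254184 to 98277030, plus strand). A count of 0 allows up to 3 reads, and for the exons of *Fgf5* these are 0.0207 to 0.0274 exon RPKM in a library, that is, RPKM with the exon length in place of the span. *Fgf5* RNA below that level was not detectable at this depth, and no comparison between the lines could be made.

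**Figure D2:**
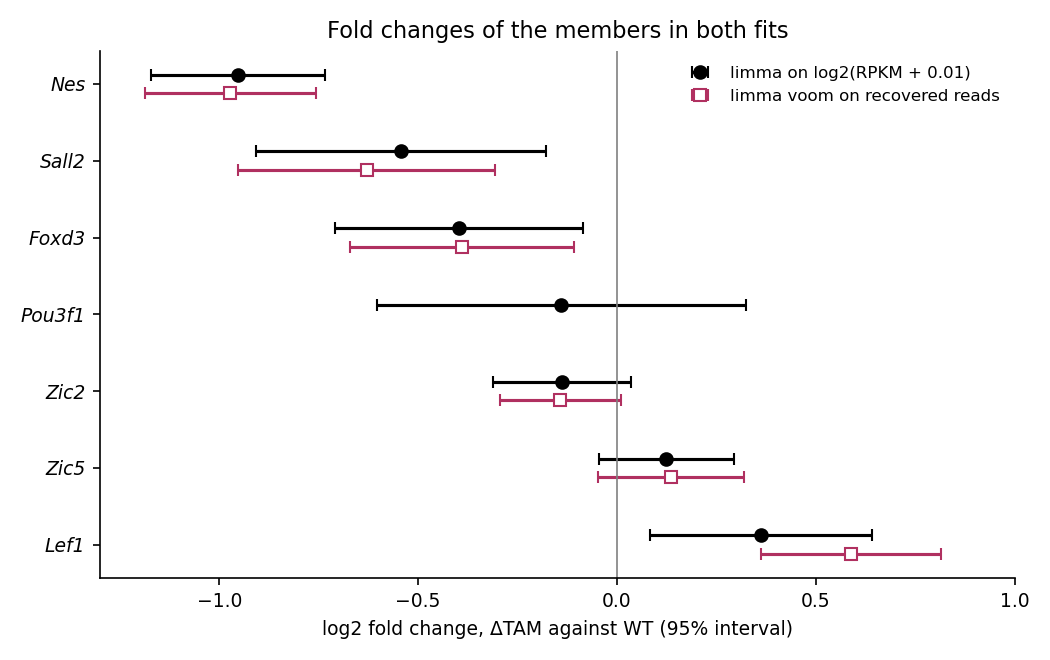
Log2 fold changes of ΔTAM against WT for the 7 members tested (x axis), with 95% intervals, from limma on log2(RPKM + 0.01) (circles) and from limma voom on recovered reads (squares; not fitted for Pou3f1, which had under 10 reads on average). The estimates for Nes were -0.95 and -0.97, and those for Lef1 were 0.36 and 0.59.

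For levels between genes, exon RPKM with the exon lengths of GENCODE vM21 were used in place of RPKM per span. On this scale, *Zic2* was the highest member in WT with 2.23 ± 0.186 exon RPKM (SD, n = 4). *Foxd3* (0.841 ± 0.161), *Nes* (0.673 ± 0.0839) and *Zic5* (0.619 ± 0.0507) followed, and neighbours in this order overlapped between libraries. *Sall2* (0.310 ± 0.0358) and *Lef1* (0.171 ± 0.0130) came next and were apart from their neighbours. *Pou3f1* (0.0539 ± 0.0159) and *Otx2* (0.0386 ± 0.00941) overlapped at the low end. In ΔTAM, *Zic2* was again first (2.02 ± 0.147), *Nes* stood after *Zic5* and *Foxd3* (0.339 ± 0.0233), and *Lef1* (0.257 ± 0.0136) had a higher mean than *Sall2* (0.206 ± 0.0446), with overlapping libraries. *Zic5* and *Foxd3* also overlapped in ΔTAM. On the same scale, the pluripotency factors *Nanog* and *Sox2* were at 62.3 and 27.3 in WT.

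**Figure D3:**
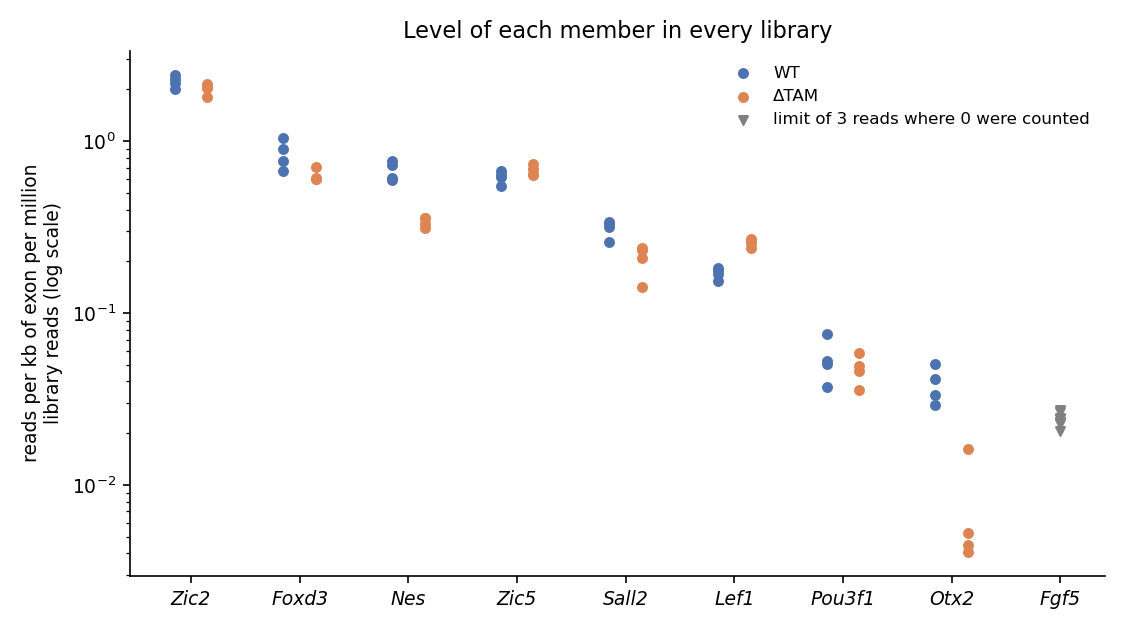
Exon RPKM (reads scaled by exon length and library total, log axis) of each member in the WT (left of each pair) and ΔTAM libraries, in the order of the WT means. The members span from Zic2 at 2.23 to Otx2 at 0.0386 in WT; the triangles for Fgf5 mark the level of 3 reads in the 8 libraries, where 0 were counted.

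Other genes of the formative state were taken from a list of 20 that holds no member. All were above 0 and 18 were tested, of which 2 rose, 5 fell and 11 did not pass, with a median log2 fold change of -0.15. With voom, 3 of 19 were higher and 6 lower, against 21.8% of all its genes in each direction. Voom added *Sox3* as higher (0.84, adjusted p = 0.0362), although the lines overlapped. It added *Grhl2* as lower (-0.61, adjusted p = 0.00191), which lay under the minimum of the main test. Both are named after their values were seen. *Utf1*, a chromatin factor of pluripotent cells, had 2.84 to 3.26 RPKM in WT and 1.43 to 1.64 RPKM in ΔTAM, without overlap. Its log2 fold change was -1.05 (limma, adjusted p = 5.54e-05). *Sox11*, a SOX factor of the epiblast and neural tissue, fell from 0.133 to 0.203 RPKM in the WT libraries to 0.0746 to 0.0880 in ΔTAM (-0.87, limma adjusted p = 0.00259). The others that fell in the main test were *Hes6*, *Tead2* and *Etv5*, by 0.49, 0.25 and 0.18 on the log2 scale, and they are named after their values were seen. The call of *Etv5* was lost without WT replicate 1, 2 or 3 or without ΔTAM replicate 3 or 4 (limma adjusted p up to 0.0669). In the opposite direction, *Dnmt3b*, which encodes a de novo DNA methyltransferase, rose from 0.229 to 0.252 RPKM in the WT libraries to 0.368 to 0.407 in ΔTAM (0.70, limma adjusted p = 1.15e-04). *Tcf7l1*, a repressor of the TCF/LEF family that promotes exit from the naive state, rose from 0.0508 to 0.0562 RPKM to 0.0788 to 0.0851 (0.54, limma adjusted p = 5.02e-04). Of all genes tested, 13.2% rose and 11.9% fell.

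Paralogues of the members formed a list of 16 genes, 3 of which the formative list also holds. Of these, 14 were above 0 and 11 were tested, 4 rose and 2 fell (54.5%, against 25.1% of all genes tested), and the median log2 fold change was 0.077. With voom, 4 of 9 paralogues were higher and 1 lower, where 43.7% of all its genes were called. An excess in this list was not tested. Within the TCF/LEF family, *Tcf7l1* and *Tcf7* (0.23, named after its values were seen) rose, and *Tcf7l2* lay under the minimum of the main test. *Sall4*, a spalt gene that sustains pluripotency, had 1.45 to 1.65 RPKM in WT and 1.90 to 2.00 in ΔTAM, a log2 fold change of 0.35 (limma, adjusted p = 0.00104). *Sall1* (-0.0093, limma adjusted p = 0.902) and *Sall3* (0.077, limma adjusted p = 0.647), named after their values were seen, did not pass. The member *Sall2* was called lower, near the threshold. *Pou3f3*, a POU gene of the nervous system, had 7 to 13 reads in WT and 17 to 24 in ΔTAM (0.91, limma adjusted p = 0.0063). Of the FGF genes, *Fgf4*, which encodes the main FGF ligand of ESCs, had 2.65 to 2.80 RPKM in WT and 1.83 to 2.01 in ΔTAM (-0.50, limma adjusted p = 1.01e-04). *Fgf8*, a ligand of the primitive streak, rested on 6 to 10 reads in WT and 2 to 4 in ΔTAM (-0.92, limma adjusted p = 0.00718). It passed the minimum of the main test through WT, and its ΔTAM mean of 0.00978 RPKM lay under it. It was left out of voom at a mean of 10 reads and was called lower by voom down to a mean of 3 (-1.35, adjusted p = 0.0131).

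Of the 13 naive genes, 3 rose and 5 fell, 61.5% against 25.1% of all genes tested, with a median log2 fold change of -0.029. The share called depends on level: with a filter of 0.1 RPKM, 3245 of 9002 genes were called. With voom, 3 of the 13 naive genes were higher and 5 lower, where 43.7% of all its genes were called. An excess in this list was not tested. *Dppa3*, a maternal factor that guards DNA methylation, rose from 0.318 ± 0.0340 RPKM in WT to 1.35 ± 0.114 RPKM in ΔTAM (SD, n = 4), a log2 fold change of 2.05 (limma, adjusted p = 2.76e-05). *Nr0b1*, an orphan nuclear receptor gene of ESCs, rose by 0.85 (limma, adjusted p = 1.77e-04). *Prdm14* also rose, and *Tbx3*, *Sox2*, *Klf4*, *Esrrb* and *Klf5* fell, with log2 fold changes of -0.43 for *Tbx3* to -0.14 for *Klf5* (these 6 are named after their values were seen). The calls of *Prdm14* and *Klf5* were lost without any 1 of 5 and of 6 libraries, with adjusted p from limma of up to 0.0783 and 0.0851. For *Prdm14* these were WT replicates 1, 2 and 3 and ΔTAM replicates 2 and 4, and for *Klf5* WT replicates 2, 3 and 4 and ΔTAM replicates 1, 2 and 4.

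**Figure D4:**
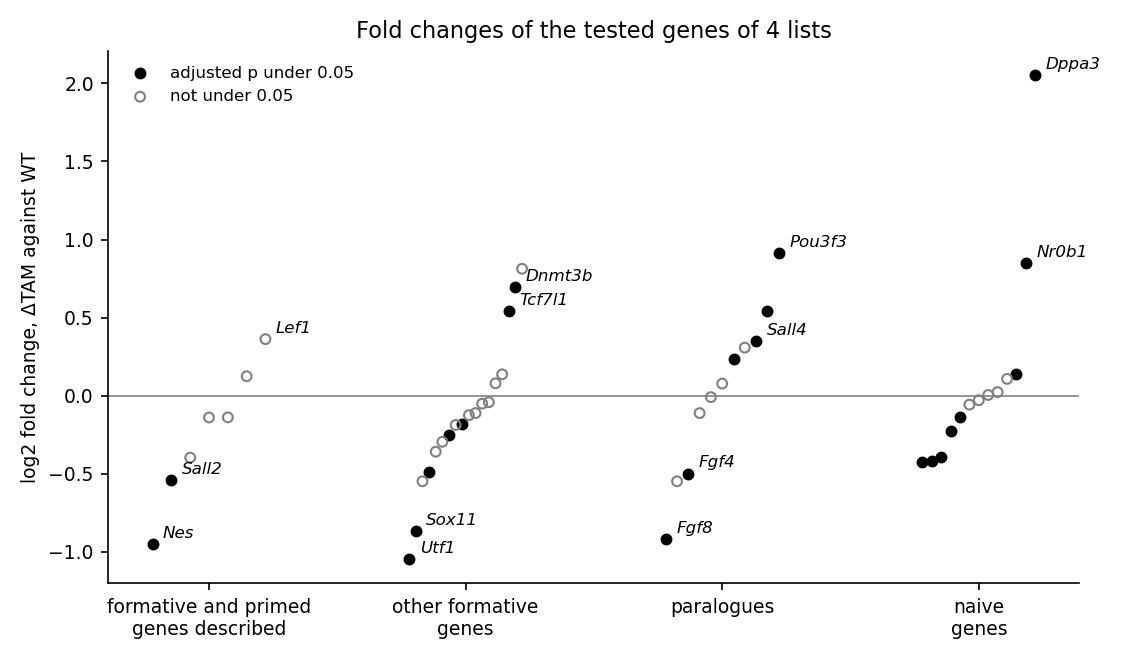
Log2 fold change of ΔTAM against WT for each tested gene of the members, the other formative genes, the paralogues and the naive genes, ordered by size within a list. Filled points have an adjusted p under 0.05 (limma), and each list has filled points on either side of 0 except that of the members, in which only Nes and Sall2 are filled.

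Markers of other lineages were also read, in a test that called 13.2% of all genes higher and 11.9% lower. Of 8 genes of the primitive streak and definitive endoderm, 7 were above 0, *Cer1* had no read and 4 were tested. *Eomes*, a T-box gene of the streak that is also on the trophoblast list, was called lower (-0.42, limma adjusted p = 0.0471), a call that was lost in 7 of the 8 fits with 1 library left out (adjusted p up to 0.112). Those 7 left out any library but ΔTAM replicate 3. The summed RPKM of this list were 0.958 to 1.15 in WT and 0.720 to 0.979 in ΔTAM. Of 7 primitive endoderm genes, all above 0, 2 were tested. *Lama1*, which encodes a laminin chain, fell from 0.385 ± 0.0103 to 0.186 ± 0.0106 RPKM (SD, n = 4; -1.01, limma adjusted p = 3.25e-05) and made up most of the list's sum, 0.410 to 0.426 RPKM in WT and 0.217 to 0.262 in ΔTAM. *Sox17*, the other gene tested, did not pass (0.29, limma adjusted p = 0.621). The remaining 5 lay under the minimum of the main test, and their means were higher in ΔTAM except for that of *Gata6* (0.00433 RPKM in WT and 0.00261 in ΔTAM). The lines did not overlap for *Gata4* (28 to 34 reads in WT and 39 to 43 in ΔTAM; voom 0.39, adjusted p = 0.0718) and *Dab2* (0 to 3 reads and 4 to 10). *Dab2* was called higher by limma without a filter (adjusted p = 0.0389), and these genes are named after their values were seen. Of 6 trophoblast genes, all above 0, 4 were tested, with *Tfap2c* higher (0.20, limma adjusted p = 0.0157) and *Eomes* lower. Their summed RPKM were 1.35 to 1.38 in WT and 1.39 to 1.69 in ΔTAM. The part of cells of these lineages in the levels of the members was not tested.

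Across the 8 libraries, the genes with the pattern most like that of *Nes* on log2(RPKM + 0.01) were *Enpp5*, *Arrdc4* and *Tyk2*, with Pearson correlations of 0.992, 0.989 and 0.987. A correlation over 0.9 with *Nes* was shared by 585 of 9001 genes. Among those most like *Sall2* were *Kbtbd11* and *Pick1* (0.982 and 0.966), and 27 of 9002 genes were over 0.9. The points are the 4 libraries of each of the lines, so that any gene that differs between the lines takes part in such a correlation.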

How the data were processed

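RNA-seq of E14 ESCs was analysed in 8 libraries, 4 of each line, assigned by their labels. Libraries were polyA-selected and strand-specific (TruSeq). The authors removed ribosomal RNA reads (SortMeRNA), trimmed with Trimmomatic (0.36 in the submitters' processing notes), mapped with STAR to mm10 and deposited RPKM for each library from exon coverage. Neither the annotation release nor whether strand was used nor how multiply mapped reads were treated is given in the sources used here, so values of overlapping genes and close paralogues are uncertain. Multiplied by the genomic span, the RPKM that the authors deposited fell on multiples of a fixed step, which differs by library and is the value of 1 read. Of 51288 entries, 386 repeats of a symbol were set aside, and 94.5% of the genes had a GENCODE vM21 symbol. All 9 members had its coordinates.

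The main test was limma 3.58.1 (R 4.3.3, lmFit, eBayes with trend, no covariates) on log2(RPKM + 0.01), for the 16149 genes averaging 0.01 RPKM or more, with Benjamini-Hochberg adjustment over all genes tested. A fold change on this scale understates the change of low genes. Exact permutation tests were two-sided. Limma voom on recovered reads called 5528 of 12660 genes. Alternatives were the pseudocount, the filter, a scale without length, the scaling, the variance model, the replicate block and each library left out. The main test and voom were also run on simulated data, in which genes with few reads were left unchanged. The outcome is not reported here and does not bear on the calls of such genes. Named genes were the members, *Baz2a*, of each list the genes with the largest change and an adjusted p under 0.05 (up to 4 of the formative, 5 of the paralogues and 2 of each other list), and the 3 genes most like each of the 2 members that were called. Of these, 1 gene is not reported here. The members and lists were chosen with earlier results of these data known. Library totals from the steps were 43.8 to 58.1 M reads. Reads on genes were 14.9% to 15.0% of these totals, and the cause of this share was not tested. Exon RPKM and the limit for *Fgf5* are scaled by the totals. Intervals and limits from reads cover counting error only. Python 3.11.15 and matplotlib 3.10.9 were used for tables and figures.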

Additional observations from a re-analysis of the deposited data

Results flagged for a closer look

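In 2 of the 16 groups of 4 libraries formed by the lines for the 8 members above 0, 1 library stood apart from the other 3, by Dixon's 95% criterion. Chance alone singles out about 1 in 20 groups. *Otx2* was at 0.00424 RPKM in ΔTAM replicate 2, above the other ΔTAM libraries and below all WT libraries. This value is that of 3 reads where the others held 1 read each. *Foxd3* was at 0.704 RPKM in ΔTAM replicate 4, above the other ΔTAM libraries (0.599 to 0.609 RPKM) and above WT replicate 4.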

How the results depend on the processing

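The direction of *Nes*, *Sall2*, *Foxd3*, *Zic2*, *Zic5* and *Lef1* was the same under all alternatives that could include them, and *Nes* was called under each. The estimate for *Pou3f1* turned from -0.14 to 0.011 without WT replicate 4, and with each library left out it ranged from -0.27 to 0.011. The number of members called higher was 1 instead of 0 (*Lef1*) with a pseudocount of 0.001 RPKM (adjusted p = 0.0361 from limma), without a filter (0.0410), with log2(RPM + 0.1) (1.59e-04), with voom on recovered reads, with eBayes without a trend (0.00232) and with voom down to a mean of 3 reads. In either direction, log2(RPM + 0.1) called 5498 of 12634 genes and the main test 4051 of 16149. The pseudocount of 0.001 RPKM called 4076 of 16149 genes, no filter 3689 of 25439 and no trend 3920 of 16149. The number called lower was 1 instead of 2 with a pseudocount and filter of 0.1 RPKM together, a filter that leaves *Sall2* out, and 4 with voom down to a mean of 3 reads, the alternative chosen after seeing the data (*Nes*, *Sall2*, *Foxd3* and *Otx2*, the last passing this minimum only through WT). That fit called 38.0% of all genes. The number lower was 3 with voom on recovered reads, which called 43.7%. Leaving out 1 library at a time, the number lower was 1 to 2, and the number higher was 0 to 0. *Sall2* lost its call without a filter (limma adjusted p = 0.0695). *Foxd3* gained one with a filter of 0.1 RPKM (0.0491), which called 3245 of 9002 genes, and with log2(RPM + 0.1) (0.0185). Same-numbered libraries of the lines did not deviate together (r of 0.0025 to 0.046 over 9002 genes), and not every library correlated best with its own number. With the replicate block, 2979 genes were called against 4051 without, and 1 member was called lower (*Sall2* had a limma adjusted p of 0.113). The cause of these other changes was not tested. No scaling moved the median of all genes by over 0.1. The depth limits *Otx2*, *Pou3f1* and *Fgf5*, with at most 15 reads in a library.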
